A study of Homo sapiens with 18 samples.

Results

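The 94 genes described here have the symbols given to long intergenic non-coding RNAs and were taken by symbol alone. A gene was a member when its symbol was LINC followed only by digits and when it was listed in both deposited expression tables, one of MDA-MB-231 and one of T47D cells. That rule gave 94 of the 12666 genes listed in both tables. The MDA-MB-231 table of 14308 genes held 181 such symbols and the T47D table of 14768 genes held 204, so that 87 and 110 of them, listed in one table alone, were not members. MDA-MB-231 is an estrogen receptor-negative breast cancer line and T47D an estrogen receptor-positive one, and in both an introduced G0S2 gene is switched on by doxycycline. Each line gave 3 control libraries with 0 doxycycline (day 0), 3 libraries after 3 days and 3 after 15 days of doxycycline, which makes 18 libraries in 6 groups, and the growth protocol gives 0.5 ug/ml. No group had doxycycline without the introduced gene, so G0S2, doxycycline and the vector cannot be told apart in any comparison. Triplicates are called biological in the series' design text, which however describes Aza-resistant cells beside their parents; no sample label names such cells, and the groups here follow the labels. The labels do not tie the 3 libraries of a group to separate cultures; if they are not separate, the p-values below reflect only how far these libraries spread, in part perhaps technically.

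Long intergenic non-coding RNAs are transcribed, and often spliced and polyadenylated like messenger RNAs, but have no long conserved reading frame. They are usually less abundant than messenger RNAs and more restricted to single cell types. Some act near their own site of transcription, some host small RNAs or short peptides, and most have no assigned function. In breast cancer individual members have been studied as drivers or suppressors of growth and spread, LINC01089 for instance as a transcript that growth factor signalling represses in mammary cells and that restrains metastasis.

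Levels are in CPM, a gene's reads scaled to the size of its library. Depth, as the sum of listed reads, was 37.0 to 52.4 M for the MDA-MB-231 libraries and 40.1 to 51.0 M for those of T47D. G0S2 stood at 25.02 to 25.48 CPM in the 3 MDA-MB-231 controls and at 1103 to 1506 CPM in the 6 induced libraries, and at 0.2769 to 0.8998 CPM in the T47D controls and 736 to 993 CPM in the induced ones, as the labels say. T47D listed all 8 luminal marker genes, of which MDA-MB-231 listed GATA3, KRT8, KRT18 and CDH1 but not ESR1. Summed, the luminal genes listed reached 6940 to 7400 CPM in T47D and 670 to 809 CPM in MDA-MB-231. MDA-MB-231 listed all 6 mesenchymal genes, of which T47D listed CD44 alone. Summed leukocyte markers reached at most 1.8 CPM, fibroblast markers 20.4 CPM and endothelial markers 10.3 CPM in any library. Library pairs of a group differed by a chi-square of 1.74 to 5.92 per degree of freedom, except that T47D day 15 replicate 2 differed from replicates 1 and 3 by 14.5 and 23.6. That library stands apart, and counts of called members that rest on T47D at day 15 are given with and without it.

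The letters below belong to the members on which the results turn. For 62 of the 94 members RefSeq gives a promoter window on GRCh38.p14, from 250 bases before the start to 50 after it. LINC00641 has 2 such windows, of which 1 is shown and described. Shown are the only member that fell in T47D at day 3 (LINC00641, chr14:21206851-21207150, minus strand), the member with the largest rise there at day 15 (LINC01116, chr2:176637560-176637859, minus strand), a pair that start beside a coding gene and rose in T47D (LINC01089, chr12:121802897-121803196, minus strand, and LINC01521, chr22:31346509-31346808, plus strand) and the most abundant member, which fell in T47D (LINC00674, chr17:68101305-68101604, plus strand). Each is written 5′ to 3′ in the direction of transcription, with capitals for matches on either strand to any of 4 motifs: CCAAT (the CCAAT box), TATAAA (the TATA box), AANNGAAA (the core letters of an interferon-type element) and TGANTCA (the AP-1 element).
LINC00641: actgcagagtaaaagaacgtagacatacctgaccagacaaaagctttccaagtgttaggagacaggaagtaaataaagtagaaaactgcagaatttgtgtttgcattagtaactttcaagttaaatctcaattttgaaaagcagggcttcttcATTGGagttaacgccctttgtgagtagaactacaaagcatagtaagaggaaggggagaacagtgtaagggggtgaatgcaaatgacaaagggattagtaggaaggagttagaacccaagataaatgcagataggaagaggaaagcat
LINC01116: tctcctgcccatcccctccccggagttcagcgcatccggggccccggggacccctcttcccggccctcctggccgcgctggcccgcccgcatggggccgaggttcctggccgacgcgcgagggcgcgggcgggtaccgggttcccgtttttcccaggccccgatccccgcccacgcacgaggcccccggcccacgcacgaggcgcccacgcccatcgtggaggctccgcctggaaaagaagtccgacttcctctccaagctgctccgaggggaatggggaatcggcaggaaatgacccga
LINC01089: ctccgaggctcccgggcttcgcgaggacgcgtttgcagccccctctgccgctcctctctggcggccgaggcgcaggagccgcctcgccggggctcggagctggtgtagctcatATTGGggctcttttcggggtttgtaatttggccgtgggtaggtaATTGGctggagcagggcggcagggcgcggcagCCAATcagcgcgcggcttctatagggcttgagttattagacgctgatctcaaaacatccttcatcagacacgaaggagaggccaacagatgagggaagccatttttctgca
LINC01521: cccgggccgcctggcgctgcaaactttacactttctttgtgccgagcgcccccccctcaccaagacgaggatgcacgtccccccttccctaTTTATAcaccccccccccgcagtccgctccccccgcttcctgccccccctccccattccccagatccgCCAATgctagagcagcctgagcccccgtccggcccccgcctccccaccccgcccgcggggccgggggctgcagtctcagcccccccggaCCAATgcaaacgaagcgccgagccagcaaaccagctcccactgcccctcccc
LINC00674: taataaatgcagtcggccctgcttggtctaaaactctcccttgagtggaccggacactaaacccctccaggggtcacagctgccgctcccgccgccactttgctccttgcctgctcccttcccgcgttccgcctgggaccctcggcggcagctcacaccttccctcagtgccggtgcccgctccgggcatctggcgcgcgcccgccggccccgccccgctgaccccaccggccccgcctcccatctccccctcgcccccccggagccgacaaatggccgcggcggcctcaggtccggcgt
LINC01089 held 3 CCAAT matches, LINC01521 held 2 together with 1 TATAAA match, LINC00641 held 1 CCAAT match, and the windows of LINC01116 and LINC00674 held none of the 4. Over the 62 members with a window CCAAT was found in 31, against 35.7% of all 27305 promoters in the table. AANNGAAA was found in 14.5% of the members and 23.2% of all promoters, TATAAA in 11.3% and 12.0%, and TGANTCA in 6.45% and 7.76%. A match is a description of letters, not a site. The median GC content was 60.7% in the members and 58.3% in all promoters, and the windows of LINC01116 (72.7%), LINC00674 (71.0%) and LINC01521 (70.7%) were far richer in GC than that of LINC00641 (39.0%).

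LINC00342, the only member called in both lines over all libraries, had no RefSeq window. Members can share stretches with other genes, measured here as the percentage of the 31-base words of a member's GENCODE release 29 transcripts that another annotated gene also holds on either strand. In LINC00342 48.0% of the words were shared, 46.7% with AC092683.1, a gene elsewhere on chromosome 2. How the authors' counting divided such reads is not given in the sources used here. The counts of LINC00342, and of other members with shared stretches named below, are uncertain for that reason. Sharing was lower in most members: its median over the 89 members found in GENCODE was 6.68%, 52 members shared under 10% and 5 shared over 50% (LINC01145, LINC00623, LINC01881, LINC00869 and LINC01410). Among members called below, LINC01089 shared 48.5% and LINC02246 41.1%, mostly with annotated transcripts that overlap them (AC084018.2 and AF127577.4). LINC01116 shared 26.2% of its words, 13.5% with FAM110D on another chromosome. LINC00674 shared 21.5%, 12.1% with SMURF2 elsewhere on chromosome 17. LINC01605 shared 0%, LINC01278 0.251% and LINC00641 2.5%.

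The 89 members found in GENCODE release 29 were classed by place, with the divergent class taken first. Divergent were 17, with a start within 2000 bases of a coding gene's start on the other strand. Of the others, 4 overlapped a coding gene on the other strand, 4 on the same strand, and 64 were intergenic. A divergent member can overlap its partner as well, as LINC00337, LINC00476 and LINC01006 do with ICMT, ERCC6L2 and RNF32. Not matched were 5 of the 94 members (LINC01061, LINC01000, LINC00537, LINC00999 and LINC00673). By GENCODE gene type LINC00674, LINC00680, LINC00869, LINC00888, LINC01145 and LINC01881 are transcribed unprocessed pseudogenes. LINC02210 is typed as a transcribed unitary pseudogene and LINC02693 as a coding gene. The members lay on 23 chromosomes, 16 of them on chromosome 1. Their exons covered 483 to 15578 bases (median 3148) in a median of 5 exons, and 12 members had 1 exon. Small RNAs lay inside 3 members: MIR30A and MIR30C2 in LINC00472, SNORA63D in LINC00888 and MIR5087 in LINC01138.

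The members were of low abundance in both lines. Their median level was 2.01 CPM in MDA-MB-231, where the median of all genes was 24.5 CPM, and 3.08 CPM in T47D, where it was 23.4 CPM. Under 1 CPM lay 27 members in MDA-MB-231 and 20 in T47D, and over 10 CPM 16 and 15. All members together made up 560.7 to 582.4 CPM in the 9 MDA-MB-231 libraries and 661.5 to 693.9 CPM in the 9 T47D libraries, and 5 members held 36.7% and 41.7% of that sum. The sums of day 0, day 3 and day 15 libraries overlapped in MDA-MB-231; in T47D the 3 day 15 sums (689.1 to 693.9 CPM) lay just above the 6 others (661.5 to 684.6 CPM).

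Per kilobase of exon LINC00674 led both lines, at 108.3 CPM per kb in MDA-MB-231 and 251.6 in T47D over the 9 libraries. Its annotated exons cover 734 bases, and 1 gene model of that length carries the ranking. In MDA-MB-231 it was followed by LINC01116 (10.9 CPM per kb), LINC00888 (10.2), LINC02746 (8.42) and LINC01605 (7.42). In T47D it was followed by LINC01560 (9.45 CPM per kb), LINC02746 (9.42), LINC01521 (7.58) and LINC01963 (7.02). LINC02746 ranked 4 and 3 in the lines, whereas LINC01116 and LINC01605 ranked 44 and 61 in T47D. The neighbours in the T47D order LINC01560 and LINC02746 did not separate, since LINC02746 varied from 5.29 to 7.93 CPM over its libraries.

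The tables of the lines were normalized separately, so levels of the lines stand side by side without a test. At day 0, 31 members were over 2-fold higher in T47D, 18 were over 2-fold higher in MDA-MB-231 and 45 (47.9%) lay within 2-fold, against 62.9% of all genes in both tables. Across the 94 members the log2 day 0 levels of the lines had a Pearson r of 0.53. The largest ratios towards MDA-MB-231 were those of LINC01605 (12.5 ± 0.171 CPM against 0.572 ± 0.0913, SD, n = 3 libraries each, 21.9-fold), LINC01116 (15.1-fold), LINC00630 (11.7-fold), LINC00472 (11.1-fold) and LINC02693 (10.8-fold). LINC00472, the host of the miR-30 precursors that has been studied as a suppressor of breast tumour growth, stood at 24.5, 23.8 and 24.3 CPM in MDA-MB-231 and at 2.25, 2.02 and 2.25 CPM in T47D. LINC02693, which GENCODE release 29 lists as the coding gene C17orf51, stood at 48.9, 50.8 and 50.2 CPM against 5.04, 4.33 and 4.48 CPM. The largest ratios towards T47D were those of LINC00999 (10.2-fold), LINC02246 (9.84-fold), LINC00665 (9.10-fold), LINC01560 (7.09-fold) and LINC01089 (6.99-fold). LINC00665, reported to encode a micropeptide in breast cancer cells, stood at 22.5, 21.9 and 23.2 CPM in T47D and at 2.51, 2.41 and 2.51 CPM in MDA-MB-231. For each of these 10 members the day 0 libraries of the lines did not overlap, which the choice by ratio sets.

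**Figure D1:**
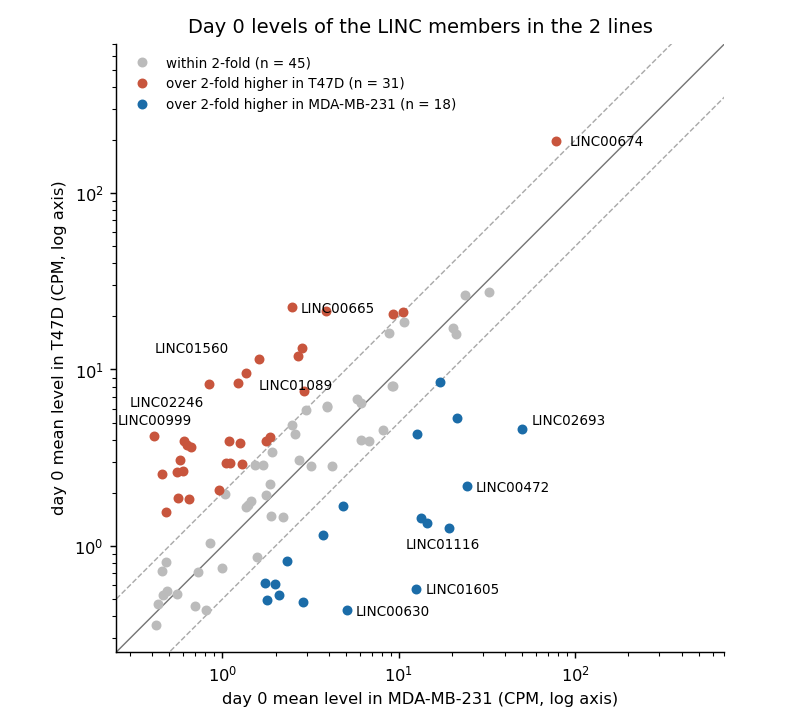
Mean day 0 level of each of the 94 members in MDA-MB-231 (x axis) and T47D (y axis), in CPM on log axes, 3 libraries per mean; the solid line marks equal levels and the dashed lines a 2-fold difference. Coloured points are the 31 members over 2-fold higher in T47D and the 18 over 2-fold higher in MDA-MB-231, and LINC00674 lies at the top right.

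Within each line limma compared the groups over the whole table, with p-values adjusted by Benjamini-Hochberg, and the threshold for a call was an adjusted p of 0.05. Folds are on the scale of log2(CPM + pseudocount of about 3 reads), which understates the change of members with few reads. SE stands for a fold's standard error in the fit to a line's 9 libraries. The median SE of the members was 0.152 in MDA-MB-231 and 0.124 in T47D, against 0.0521 and 0.066 over all genes, at a median of 86 and 142 reads per member and library. A member's 95% interval reached 0.313 and 0.266 to each side at the median, so smaller changes were mostly not detectable here. That interval is unadjusted and the threshold for a call is stricter, so larger changes could be missed as well.

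After 3 days MDA-MB-231 gave no called member, where 0.895% of all genes were called higher and 0.874% lower. At an unadjusted p under 0.05, limma gave 6 members higher and 4 lower, against 1003 and 937 of all 14308 genes. With voom weights on recovered reads 0 members were called. The median log2 fold of the 94 members was 0.01, against 0.00 over all genes, and single folds ran from −0.97 to 0.50. The lowest belonged to LINC00865, named here after its values were seen, with 39, 35 and 26 reads in the controls and 17, 14 and 12 at day 3 (log2 fold −0.97, SE 0.286, limma adjusted p = 0.0831). The call count became 1 without day 0 replicate 3.

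In T47D 1 of the 94 members was called at day 3, where 1.16% of all genes were called higher and 0.718% lower. LINC00641, an intergenic transcript of chr14:21200079-21206900, stood at 4.97, 4.17 and 4.53 CPM in the controls, at 2.496, 2.92 and 2.74 CPM at day 3 and at 3.89, 4.17 and 4.08 CPM at day 15. All 3 day 3 libraries lay below the 6 others, and the day 15 libraries lay at the lower edge of the controls. In RNA of whole cultures, fewer cells with an RNA and less of it per cell cannot be told apart, here and below. It fell at day 3 (log2 fold −0.73, SE 0.104, limma adjusted p = 0.000728) and was higher again at day 15 than at day 3 (0.57, SE 0.104, adjusted p = 0.00454). Against day 0 its day 15 fold was −0.17 (95% interval −0.391 to 0.057, adjusted p = 0.361). In MDA-MB-231 the same RNA stood at 7.37 to 8.65 CPM in the controls, 7.63 to 9.57 at day 3 and 9.49 to 9.87 at day 15, with log2 folds of 0.12 and 0.25 that were not called (adjusted p = 0.589 and 0.0583). The nearest coding start belongs to OR5AU1, an olfactory receptor gene 47840 bases away that neither table listed.

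By day 15, 4 members were called in MDA-MB-231 (2 rises and 2 falls), where 3.42% of all genes were called higher and 4.77% lower. That is 4.26% of the members, against 8.2% of all genes. An unadjusted p under 0.05 was found for 13 of the 94 members and for 3398 of all 14308 genes. The median log2 fold of the members was 0.02 and that of all genes 0.00.

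LINC00342 had the largest rise in MDA-MB-231. It stood at 1.09, 1.34 and 1.34 CPM at day 0, at 1.91, 1.82 and 1.504 at day 3 and at 2.10, 1.92 and 2.40 at day 15, which corresponds to 47 to 70 reads in the controls and 81 to 88 at day 15. Each induced library lay above each control, and the day 15 libraries lay above the controls by a log2 fold of 0.74 (SE 0.157, limma adjusted p = 0.00375). The day 3 fold of 0.45 was not called (adjusted p = 0.161).

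LINC01128, an intergenic transcript of chr1:825138-859446, rose by a small margin at day 15. It stood at 16.8, 17.6 and 17.2 CPM at day 0, 20.1, 19.1 and 18.7 at day 3 and 20.2, 18.4 and 19.7 at day 15, so the controls were the 3 lowest libraries (day 15 log2 fold 0.18, SE 0.0546, limma adjusted p = 0.0439). The day 3 fold was 0.17 (adjusted p = 0.124).

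LINC01605, intergenic at chr8:37421341-37554183, and LINC01224, intergenic at chr19:23399233-23416075, fell. Both are among the RNAs that were far higher in MDA-MB-231 than in T47D at day 0. LINC01605 stood at 12.7, 12.5 and 12.4 CPM at day 0, 10.8, 12.0 and 10.9 at day 3 and 10.2, 10.3 and 9.82 at day 15 (day 15 log2 fold −0.31, SE 0.0657, limma adjusted p = 0.00388). The groups of days 0 and 15 did not overlap with each other or with day 3. LINC01224 stood at 14.0, 14.6 and 14.7 CPM at day 0, 13.9, 14.2 and 13.1 at day 3 and 12.5, 12.9 and 11.6 at day 15 (day 15 log2 fold −0.22, SE 0.062, limma adjusted p = 0.0242), and again the day 15 libraries were the 3 lowest.

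The calls of LINC00342 and LINC01605 held when each of the 6 day 0 and day 15 libraries was left out in turn. LINC01128 missed the threshold without day 0 replicate 1, 2 or 3 or day 15 replicate 1 or 3 (adjusted p 0.0581 to 0.176), and LINC01224 missed it without day 0 replicate 1 or 2 or day 15 replicate 1 or 3 (0.0531 to 0.118), so that 2 members were called without any 1 of those last 4 libraries.

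Between day 3 and day 15 of MDA-MB-231, which shares its day 15 libraries with the comparison above, 2 members were called higher and none lower, where 2.47% of all genes were called higher and 2.86% lower. LINC01004, which starts 1135 bases from KMT2E, a chromatin regulator gene, on the other strand, stood at 2.77, 2.63 and 1.99 CPM at day 0, 2.20, 2.02 and 2.17 at day 3 and 2.92, 2.99 and 3.41 at day 15. Its day 15 libraries were the 3 highest (day 15 against day 3: log2 fold 0.53, SE 0.135, limma adjusted p = 0.0222). LINC01278, an X-linked intergenic RNA, stood at 22.7, 24.3 and 24.4 CPM at day 0, 22.8, 22.4 and 24.2 at day 3 and 25.9, 24.97 and 27.9 at day 15 (log2 fold 0.18, SE 0.052, adjusted p = 0.0392). Neither was called without day 3 replicate 1 or 2 or day 15 replicate 1 or 3 (adjusted p 0.0526 to 0.201 over both genes).

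**Figure D2:**
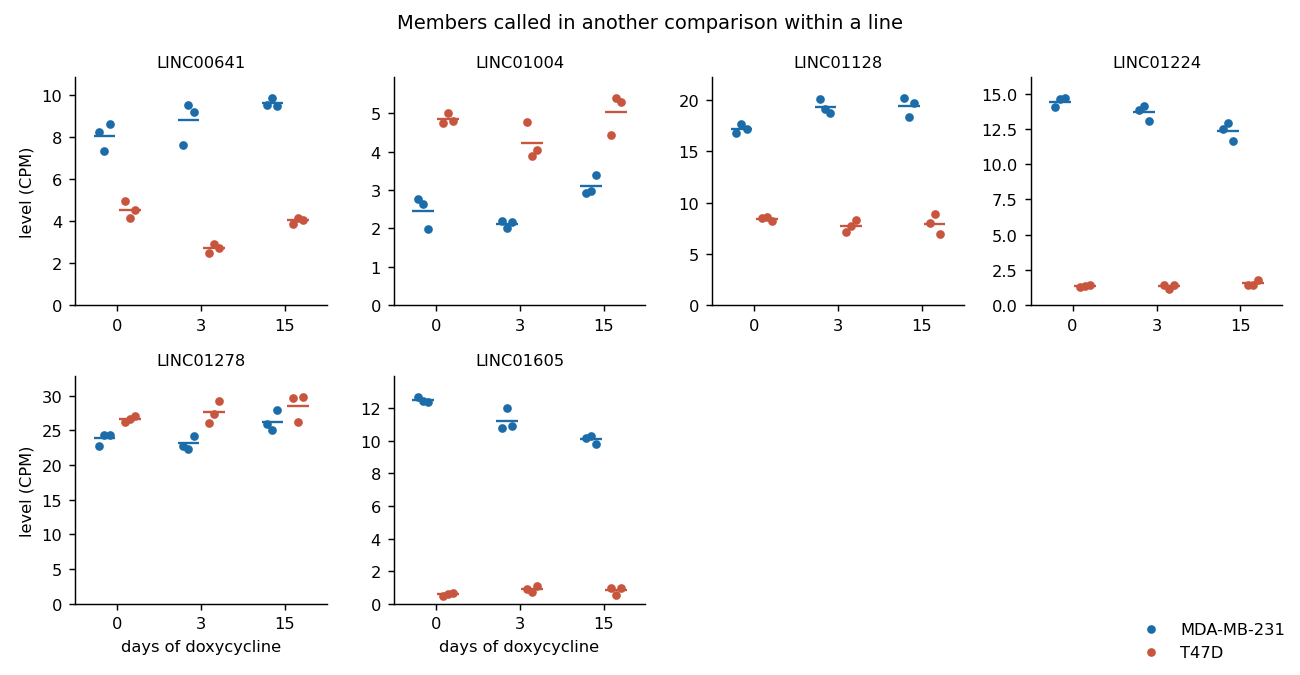
Level in CPM (y axis, from 0) of 6 members in each library of MDA-MB-231 (blue) and T47D (red) at days 0, 3 and 15; points are libraries and bars group means. LINC00641 dips at day 3 in T47D, from 4.17 or more to 2.92 CPM or less, while LINC01605 and LINC01224 end lowest at day 15 in MDA-MB-231.

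T47D at day 15 gave the largest number of calls. Of the 94 members 9 were called higher and 1 lower against day 0, where 5.0% of all genes were called higher and 6.23% lower. The members' share, 10.6%, was close to the 11.2% of all genes, and the median log2 fold was 0.06 in the members and 0.00 over all genes. The rises were in LINC01116, LINC00342, LINC02246, LINC01089, LINC01006, LINC00899, LINC00467, LINC01521 and LINC01139. Without T47D day 15 replicate 2, the library that stands apart, 14 members were called, 13 higher and 1 lower (14.9%), and 3705 genes in place of 1659, that is 11.3% of all genes higher and 13.7% lower. Those 14 held all 10 of the members called with it. Without day 0 replicate 1 or day 0 replicate 2 the count was 6, with no share of all genes given beside it here.

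LINC01116, which lies at chr2:176629589-176637931 and has been studied as a growth-promoting RNA in several tumours, had the largest rise. It stood at 1.31, 0.969 and 1.53 CPM at day 0, 1.58, 1.28 and 1.70 at day 3 and 2.40, 2.09 and 2.32 at day 15, from 49 to 61 reads in the controls and 95 to 111 at day 15. The day 15 libraries lay above all others (log2 fold 0.83, SE 0.173, limma adjusted p = 0.00631), and controls and day 3 overlapped. In MDA-MB-231 the same RNA held 18.02 to 20.98 CPM in all 9 libraries, with a day 15 fold of 0.07 (95% interval −0.045 to 0.177).

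LINC00342 rose in T47D as well. It stood at 3.82, 4.08 and 3.53 CPM at day 0, 4.79, 4.997 and 4.34 at day 3 and 5.53, 5.29 and 6.56 at day 15 (day 15 log2 fold 0.59, SE 0.106, limma adjusted p = 0.00213). The 3 groups did not overlap, and the day 3 fold of 0.30 was not called (adjusted p = 0.265). The day 15 folds of the lines differed by −0.15 (T47D minus MDA-MB-231, SE 0.182, adjusted p = 0.688).

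LINC02246, intergenic at chr21:14819699-14918552, stood at 9.18, 7.48 and 8.22 CPM at day 0, 9.78, 8.58 and 8.95 at day 3 and 12.3, 11 and 12.2 at day 15. Its day 15 libraries were the 3 highest (log2 fold 0.51, SE 0.0874, limma adjusted p = 0.00147). LINC01089, the metastasis-restraining RNA named above, starts by GENCODE 274 bases from the histone methyltransferase gene SETD1B on the other strand. It stood at 9.25, 10.01 and 9.29 CPM at day 0, 10.1, 9.73 and 10.2 at day 3 and 12.9, 13.1 and 12.9 at day 15 (log2 fold 0.44, SE 0.0645, limma adjusted p = 0.000428). Here too the step lay between day 3 and day 15.

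LINC00674 was the only member that fell. It stood at 195.8, 200.7 and 195.4 CPM at day 0, 179.9, 185.1 and 178.4 at day 3 and 175.3, 175.4 and 176.4 at day 15. The 3 groups did not overlap (day 15 log2 fold −0.17, SE 0.0298, limma adjusted p = 0.00215), and the day 3 fold of −0.12 just missed the threshold (adjusted p = 0.0534). With 7799 to 10146 reads per library it is the most precisely measured member.

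The calls of these 5 members held when each of the 6 day 0 and day 15 libraries of T47D was left out in turn. Of the others, LINC01006, which starts 373 bases from RNF32 on the other strand, moved from 3.801, 3.70 and 4.46 CPM at day 0 to 5.20, 5.27 and 5.45 at day 15 (log2 fold 0.41, SE 0.109, adjusted p = 0.0251). LINC00899, reported to restrain the tubulin gene TUBB3 in dividing cells, moved from 8.62, 7.52 and 9.09 CPM to 10.3, 10.95 and 10.2 (0.32, SE 0.0899, adjusted p = 0.0341). LINC00467, reported to encode a micropeptide in colorectal cancer, moved from 15.3, 16.8 and 16.5 CPM to 20.5, 17.7 and 22.4 (0.31, SE 0.0824, adjusted p = 0.0256). LINC01521, which starts 545 bases from the transcription factor gene PATZ1 on the other strand, moved from 13.6, 13.5 and 12.8 CPM to 15.2, 16.5 and 16.0 (0.26, SE 0.0625, adjusted p = 0.0163). In each of the 4 the day 15 libraries lay above the controls. LINC01139 is the ninth rise, outside the rule that names 8 per direction, with 11.8, 11.6 and 12.5 CPM at day 0, 14.0, 14.4 and 13.4 at day 3 and 14.0, 14.5 and 14.4 at day 15 (0.25, SE 0.0611, adjusted p = 0.0153). Its day 3 libraries already lay above the controls.

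LINC01006 was not called without day 0 replicate 1 or 2 or day 15 replicate 1 or 3 (adjusted p 0.0501 to 0.115), LINC00899 without day 0 replicate 1 or 2 or day 15 replicate 1 (0.0797 to 0.168), and LINC01521 without day 0 replicate 3 (0.0701). LINC00467 was not called without any 1 of day 0 replicates 1 to 3 and day 15 replicates 1 and 3 (0.0614 to 0.119). LINC01139 was also not called without day 0 replicate 1 or 2.

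**Figure D3:**
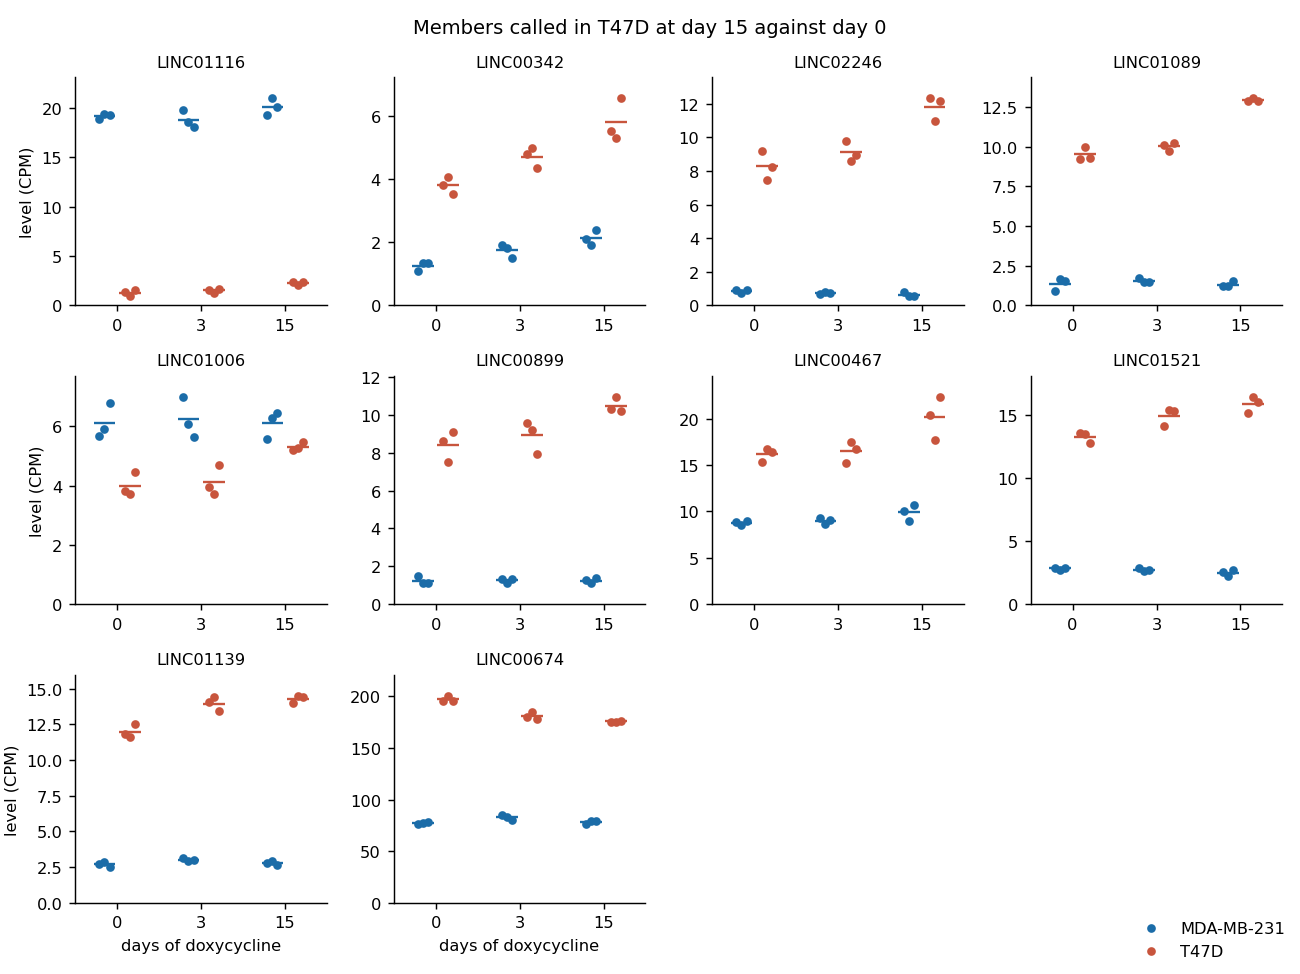
Level in CPM (y axis, from 0) of the 10 members called in T47D at day 15 against day 0, in each library of MDA-MB-231 (blue) and T47D (red) at days 0, 3 and 15; points are libraries and bars group means. In the first 4 panels the T47D day 15 points lie above the day 0 points, in the last, LINC00674, they lie below them, and LINC00342 is the panel of the member called higher in both lines.

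Between day 3 and day 15 of T47D, 3 members were called higher and none lower, where 2.23% of all genes were called higher and 3.35% lower. These were LINC00641 (above), LINC02246 (log2 fold 0.38, SE 0.0874, limma adjusted p = 0.0209) and LINC01089 (0.37, SE 0.0645, adjusted p = 0.00314). LINC02246 missed the threshold without day 3 replicate 2 or 3 or day 15 replicate 1 (adjusted p 0.0887 to 0.119). Without T47D day 15 replicate 2, 8 members were called higher and 1 lower, where 7.74% of all genes were called higher and 9.89% lower. All comparisons within a line share libraries: days 3 and 15 are set against the same 3 controls.

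Over both lines and the 3 comparisons in each, 16 members (17.0%) were called at least once, 6 in MDA-MB-231 and 11 in T47D, and LINC00342 in both (1.06%). Over all 12666 genes listed in both lines, 22.1% were called at least once and 2.04% in both lines. When T47D day 15 replicate 2 was left out, 19 members were called at least once, 16 of them in T47D, against 37.2% of all genes, and 3 were called in both lines (3.19%, against 5.43%). The 3 were LINC00342, LINC01278 and LINC01605, named here after their values were seen. LINC01605 fell in MDA-MB-231. Its T47D fold without that library was 0.68 (SE 0.246, limma adjusted p = 0.0398), at a low level in T47D, and it was not called there over all libraries. Across the 94 members the day 15 folds of the lines had a Pearson r of 0.00819 and a Spearman rho of −0.0706, given as a description, since members are not replicates. Both folds were positive in 29 members and both negative in 12, and in 53 they had opposite signs (24 positive in MDA-MB-231 alone and 29 in T47D alone). With T47D day 15 replicate 2 left out both folds were positive in 29 members and both negative in 14, 24 were positive in MDA-MB-231 alone and 27 in T47D alone, and the Pearson r was 0.0251.

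**Figure D4:**
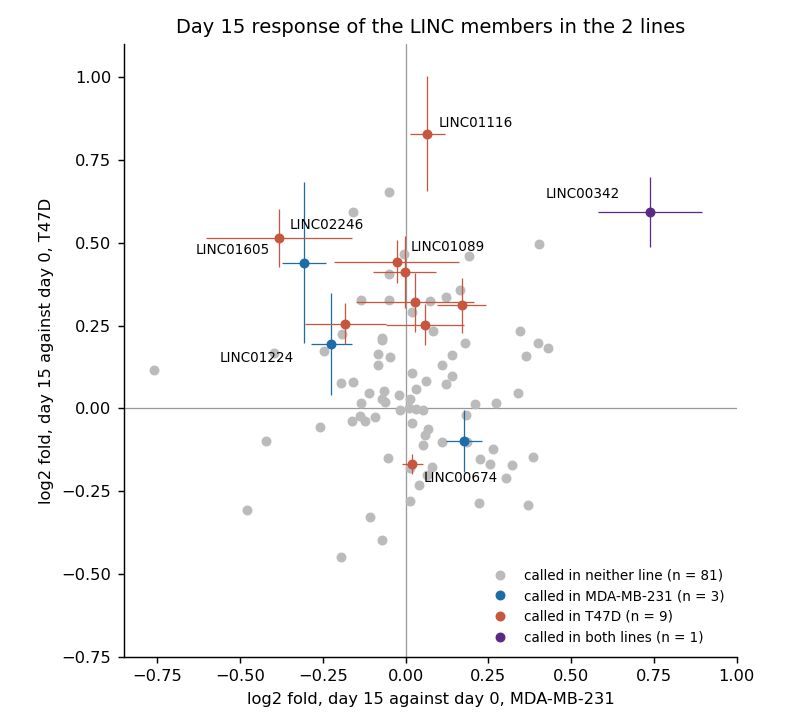
Log2 fold of day 15 against day 0 of each of the 94 members in MDA-MB-231 (x axis) and T47D (y axis); coloured points were called, with bars of 1 SE. LINC00342 is alone at the upper right, and the cloud shows no diagonal (Pearson r 0.00819).

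Whether the lines responded differently was tested over all 18 libraries as the T47D fold minus the MDA-MB-231 fold. At day 3, 2 members were called, both with the lower fold in T47D, where 1.41% of the 12666 genes were called higher and 1.05% lower. LINC00641 differed by −0.85 (SE 0.138, limma adjusted p = 0.00049), since it fell in T47D and not in MDA-MB-231. LINC00674 differed by −0.22 (SE 0.0392, adjusted p = 0.00122): its day 3 folds were 0.10 in MDA-MB-231 (76.3, 77.1 and 78.5 CPM to 84.9, 83.1 and 80.5 CPM, adjusted p = 0.115) and −0.12 in T47D, neither called alone.

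At day 15, 3 members had a higher fold in T47D and 1 a lower one, where 4.07% of all genes were called higher and 5.37% lower. LINC02246 differed by 0.89 (SE 0.191, limma adjusted p = 0.00393), with a T47D fold of 0.51 and an MDA-MB-231 fold of −0.38 that was not called (0.884, 0.745 and 0.899 CPM at day 0 and 0.797, 0.570 and 0.545 at day 15). LINC01116 differed by 0.76 (SE 0.174, adjusted p = 0.0065). LINC01521 differed by 0.44 (SE 0.116, adjusted p = 0.019) and missed the threshold without MDA-MB-231 day 15 replicate 2 (0.0537). LINC00674 differed by −0.19 (SE 0.0392, adjusted p = 0.00317). Without T47D day 15 replicate 2 the count was 7, of which 5 were higher and 2 lower, where 4.59% of all genes were called higher and 6.13% lower. In each of the first 3 differences 1 of the lines held the RNA under 3 CPM in all 9 libraries, MDA-MB-231 for LINC02246 and LINC01521 and T47D for LINC01116.

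The coding gene nearest to a member, within 100000 bases of its start, was listed for 48 members in MDA-MB-231 and 51 in T47D. At day 15 the folds of members and neighbours had a Pearson r of 0.0217 in MDA-MB-231 and 0.29 in T47D (0.172 without T47D day 15 replicate 2). Spearman rho over all libraries was 0.0379 and 0.367, and 27 of 48 and 32 of 51 pairs had the same sign. These values are again a description, since genes of a pair share libraries and can share reads where they overlap and strand was not counted. Of the 17 divergent members 3 rose in T47D at day 15 (LINC01089, LINC01006 and LINC01521), and of the 64 intergenic members 6 rose and 1 fell, which is 17.6% and 10.9% called, against 11.2% of all genes. Leaving out T47D day 15 replicate 2, 3 divergent members rose, and 10 intergenic members rose and 1 fell (17.6% and 17.2%, against 25.1% of all genes). The partners of the 3 had small folds that were not called: SETD1B 0.09 (SE 0.0434, limma adjusted p = 0.25), RNF32 0.08 (SE 0.205, adjusted p = 0.86) and PATZ1 0.10 (SE 0.0627, adjusted p = 0.366). KPNA2, an importin gene 66389 bases from LINC00674, had a T47D fold of 0.07 (adjusted p = 0.0889), TRAF5, next to LINC00467, −0.14 (adjusted p = 0.334) and PRR34, next to LINC00899, −0.01 (adjusted p = 0.991). In MDA-MB-231 ZNF91, a zinc finger repressor gene 20515 bases from LINC01224, rose at day 15 (0.21, SE 0.0473, adjusted p = 0.00559) while LINC01224 fell, and KMT2E rose against day 0 (0.13, SE 0.0357, adjusted p = 0.028) where the fold of LINC01004 was 0.34 (adjusted p = 0.119). SAMD11, 98790 bases from LINC01128, was listed in T47D only.

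**Figure D5:**
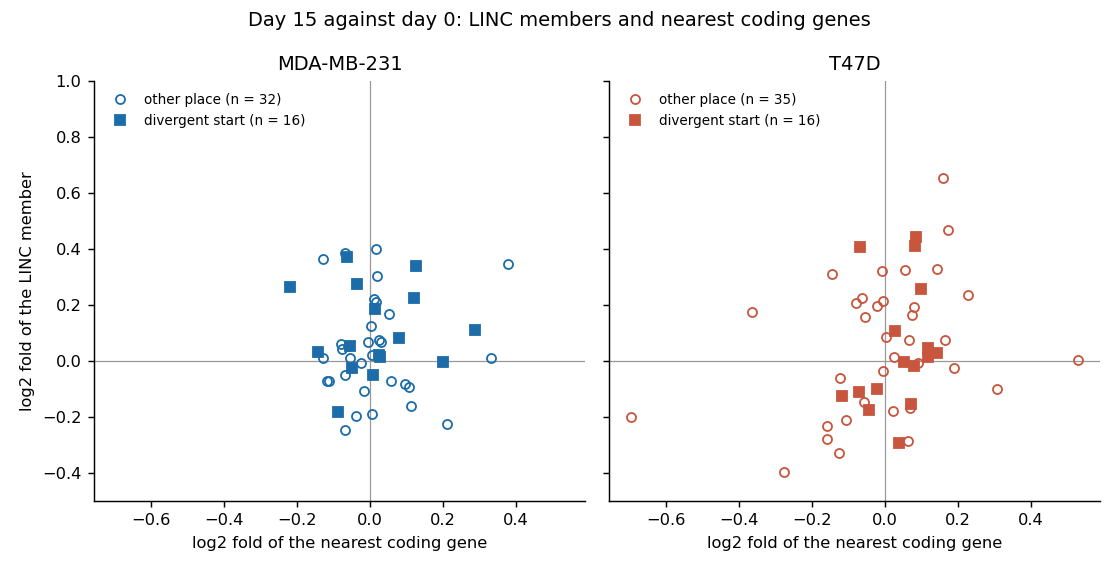
Log2 fold of day 15 against day 0 of a member (y axis) against that of its nearest coding gene (x axis), for 48 pairs in MDA-MB-231 (left) and 51 in T47D (right); filled squares are the 16 divergent pairs listed in each line. Points scatter around 0 in MDA-MB-231 (Pearson r 0.0217) and the r in T47D was 0.29, or 0.172 without day 15 replicate 2.

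Other non-coding classes were counted in the same way at day 15 against day 0, where 8.2% of all genes were called in MDA-MB-231 and 11.2% in T47D. Of 216 antisense RNAs (symbols ending in -AS and a number) 4 were called higher and 1 lower in MDA-MB-231 (2.31%) and 9 and 2 in T47D (5.09%). Of 45 divergent transcripts (-DT) 1 was called higher in each line and none lower (2.22%). Of 23 small nucleolar RNA hosts none was called in MDA-MB-231 and 2 were lower in T47D (8.7%), and of 15 microRNA hosts 1 was lower in MDA-MB-231 (6.67%) and none was called in T47D. Without T47D day 15 replicate 2 the T47D shares were 10.6%, 6.67%, 26.1% and 0% in that order, against 25.1% of all genes. Of 10 widely studied long non-coding RNAs outside the LINC symbols, H19 was listed in neither table and UCA1 in MDA-MB-231 alone. UCA1, studied as a growth-promoting RNA, fell from 43.4, 41.4 and 43.1 CPM to 27.3, 28.4 and 28.0 at day 3 and 31.7, 29.8 and 34.3 at day 15 (log2 folds −0.61 and −0.42, SE 0.0466, limma adjusted p = 1.06e-09 and 7.26e-07). The smallest adjusted p of a member in that line at day 15 against day 0 was 0.00375, that of LINC00342. In T47D NEAT1, the scaffold of paraspeckles, fell (day 15 log2 fold −0.14, SE 0.0272, limma adjusted p = 0.00307). NORAD (−0.13, adjusted p = 0.0303) and DANCR (−0.20, adjusted p = 0.0189) fell there too, and NORAD rose in MDA-MB-231 (0.07, adjusted p = 0.0421). NEAT1 (−0.135, adjusted p = 0.0155) and DANCR (−0.216, adjusted p = 0.0465) were already called in T47D at day 3. So was NORAD in MDA-MB-231 (0.093, adjusted p = 0.0297). MALAT1, GAS5, TUG1, CYTOR and MIR22HG were not called in either line at day 3 or day 15 against day 0.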

How the data were processed

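Gene expression was measured by RNA sequencing in 18 libraries. The deposited tables hold log2 CPM values per gene and library, with a pseudocount of about 3 reads scaled to library size; the unit was read from the values. Per the submitters' processing notes, STAR, featureCounts and limma were used on GRCh38.p13, without versions; the normalization, the filter on low genes and strand use were not given in the sources used here. Whole reads were recovered for 100% of the values within 0.1, which gave reads and CPM. Their number limits the precision of each value, and every pair of a group's libraries differed by more than counting noise (chi-square of 1.74 or more per degree of freedom).

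For each line limma 3.58.1 (R 4.3.3) was fitted to 9 libraries with group means and trend and robust moderation, and p-values were adjusted by Benjamini-Hochberg over the whole table. The line difference was fitted over 18 libraries. The design named a count test for whole-number files and this test for log2 values, which the files hold. The fit was tested on simulated data. Members, gene lists and tests were chosen with earlier results of these data known. Named are called members (up to 8 per direction), the 5 highest per kb, the 5 largest day 0 ratios per direction, up to 4 line differences per direction, nearest coding genes and a panel. Alternatives were a low-value filter, plain moderation, another scaling and pseudocount, voom, a replicate block and leaving out each library.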

Additional observations from a re-analysis of the deposited data

Results flagged for a closer look

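Differences between the lines' responses, T47D minus MDA-MB-231 on the log2 scale, passed the limma test of the difference itself for 5 members. At day 3 these were LINC00641 (−0.85) and LINC00674 (−0.22). At day 15 they were LINC02246 (0.89), LINC01116 (0.76), LINC01521 (0.44) and LINC00674 (−0.19). LINC00674 is in both groups, and both of its differences use the same control libraries.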

How the results depend on the processing

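Of 19 named calls within a line 10 held under all 12 alternatives that bear on them, and of 6 line differences 5 held; no direction reversed. Plain moderation gave 2 members in MDA-MB-231 at day 15 against day 0 and 0 against day 3. In T47D plain moderation lost LINC00899 and LINC00467 at day 15 against day 0 (limma adjusted p = 0.0725 and 0.0831). LINC02246 was lost there at day 15 against day 3 (adjusted p = 0.0598). Replicate numbers pair libraries by label only: correlations of same-numbered libraries ran from −0.306 to 0.204, so the fit with a replicate block is given here alone, with 2 members in MDA-MB-231 at day 3 and 8 at day 15, 9 in T47D at day 15, and LINC00899 lost there (adjusted p = 0.0671). Leaving out 1 library gave 0 to 1 members in MDA-MB-231 at day 3, 2 to 6 at day 15 and 0 to 3 between them; 1 in T47D at day 3, 6 to 14 at day 15 and 2 to 9 between them; and 2 and 3 to 7 for the line differences at days 3 and 15. Over all genes MDA-MB-231 at day 15 gave 232 calls with plain moderation and 2273 with the block, against 1173. T47D at day 15 gave 3705 without day 15 replicate 2, against 1659. Calls over all genes thus moved with the setting too. The other counts without a library or with the block, here and above, have no share of all genes beside them and are not a result about the members. Another scaling, pseudocount, low-value filter and voom left each count of called members unchanged. The members' median of 86 reads per library in MDA-MB-231 and 142 in T47D went with SEs above those of all genes; its part in the calls was not tested.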
